A study of Mus musculus with 4 samples.

Results

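Of the 30177 probe sets in the table, 1613 were annotated to several different gene symbols, and these shared probe sets are described here by gene family. A probe set is a group of short oligonucleotides on the array whose signals are combined into 1 value. The members were chosen from the platform annotation alone: 1621 rows list several symbols, and 8 of them list the same symbol again and were left out. The RNA came from plasmacytoid dendritic cells (pDCs), sorted from the spleens of unstimulated mice and hybridised to whole-transcript arrays. There were 2 biological replicates from wild-type (WT) animals and 2 from animals lacking Flt3 (Flt3 KO), each on its own array. The labels give no strain, age, sex or allele of the knockout, nor the number of animals behind a replicate, so p-values measure only the spread between these samples.

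Copies of a gene that arose by duplication can stay so alike in sequence that 1 oligonucleotide pairs with the transcripts of all of them. A shared probe set therefore gives 1 value for the whole group, and the share of each named gene in it cannot be read from that value. Many gene families of immune cells lie in such tandem arrays, among them immunoglobulin variable segments, class I histocompatibility genes, guanylate-binding proteins and type I interferons. pDCs are known for their large output of type I interferon, and Flt3 is the receptor tyrosine kinase through which FLT3 ligand drives their development.

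How alike the copies are can be seen in the sequence around their starts. The windows below come from RefSeq (GRCm38.p6), span 300 bases around each gene's start, most of them upstream, are written 5′ to 3′, and belong to 3 groups of genes whose shared probe sets fell in Flt3 KO. Capitals mark the longest run of bases that is identical in all windows printed for that group. The build behind the array annotation is not given in the sources used here.
Xlr3a, chrX:73097046-73097345, - strand: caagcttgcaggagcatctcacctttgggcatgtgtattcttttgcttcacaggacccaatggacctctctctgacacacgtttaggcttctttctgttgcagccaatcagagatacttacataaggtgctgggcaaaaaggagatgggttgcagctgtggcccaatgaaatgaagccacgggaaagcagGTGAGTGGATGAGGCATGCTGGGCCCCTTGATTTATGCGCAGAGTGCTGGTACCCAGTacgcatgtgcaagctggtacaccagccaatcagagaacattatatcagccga
Xlr3b, chrX:73191929-73192228, + strand: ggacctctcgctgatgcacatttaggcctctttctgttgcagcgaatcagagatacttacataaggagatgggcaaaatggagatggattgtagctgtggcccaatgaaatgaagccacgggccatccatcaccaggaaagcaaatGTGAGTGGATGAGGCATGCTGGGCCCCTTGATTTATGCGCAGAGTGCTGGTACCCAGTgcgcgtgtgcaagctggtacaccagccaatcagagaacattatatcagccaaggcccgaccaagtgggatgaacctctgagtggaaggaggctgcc
Xlr3c, chrX:73265341-73265640, - strand: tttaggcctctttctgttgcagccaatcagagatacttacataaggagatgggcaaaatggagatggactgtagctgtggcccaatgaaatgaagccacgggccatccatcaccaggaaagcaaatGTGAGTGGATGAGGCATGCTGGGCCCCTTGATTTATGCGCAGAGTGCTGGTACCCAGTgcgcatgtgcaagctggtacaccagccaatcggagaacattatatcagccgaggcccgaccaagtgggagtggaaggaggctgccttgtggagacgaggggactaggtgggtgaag
Tmem254a, chr14:25927623-25927922, - strand: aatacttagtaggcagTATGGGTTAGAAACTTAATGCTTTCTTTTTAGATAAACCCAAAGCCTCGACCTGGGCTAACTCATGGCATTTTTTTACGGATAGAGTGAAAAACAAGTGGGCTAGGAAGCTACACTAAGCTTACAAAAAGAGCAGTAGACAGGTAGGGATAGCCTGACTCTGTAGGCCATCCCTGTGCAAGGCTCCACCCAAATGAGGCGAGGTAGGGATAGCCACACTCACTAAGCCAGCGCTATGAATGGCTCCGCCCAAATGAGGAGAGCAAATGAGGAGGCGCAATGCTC
Tmem254b, chr14:26206976-26207275, - strand: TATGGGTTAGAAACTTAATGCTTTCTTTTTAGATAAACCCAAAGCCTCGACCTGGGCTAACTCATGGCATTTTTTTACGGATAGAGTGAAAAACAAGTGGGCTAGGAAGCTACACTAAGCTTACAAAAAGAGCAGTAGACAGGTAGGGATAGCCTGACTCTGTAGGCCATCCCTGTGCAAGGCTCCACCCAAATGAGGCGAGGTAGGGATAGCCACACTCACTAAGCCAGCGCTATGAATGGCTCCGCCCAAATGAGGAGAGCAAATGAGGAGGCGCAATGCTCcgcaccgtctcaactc
Gm4724, chr2:175435728-175436027, - strand: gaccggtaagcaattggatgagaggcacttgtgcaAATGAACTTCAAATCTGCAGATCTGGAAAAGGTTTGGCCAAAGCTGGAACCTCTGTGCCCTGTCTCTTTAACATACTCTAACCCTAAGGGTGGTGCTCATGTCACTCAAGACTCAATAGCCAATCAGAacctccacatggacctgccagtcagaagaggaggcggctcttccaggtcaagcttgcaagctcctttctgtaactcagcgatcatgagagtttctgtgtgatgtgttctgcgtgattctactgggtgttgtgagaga
Gm6710, chr2:175868995-175869294, + strand: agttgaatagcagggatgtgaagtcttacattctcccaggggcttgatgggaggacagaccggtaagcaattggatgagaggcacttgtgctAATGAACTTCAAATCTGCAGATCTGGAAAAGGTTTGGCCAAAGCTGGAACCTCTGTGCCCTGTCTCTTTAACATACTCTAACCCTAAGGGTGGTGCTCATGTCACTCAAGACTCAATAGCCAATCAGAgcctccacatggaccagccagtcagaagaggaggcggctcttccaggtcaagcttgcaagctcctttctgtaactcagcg

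The Xlr3 windows share a run of 58 bases, the Tmem254 windows one of 284 and the Gm4724 and Gm6710 windows one of 128. Aligned in pairs over the stretch they have in common, the 3 Xlr3 windows were 87.5% to 94.3% identical and the 3 Tmem254 windows 100%. The windows of the 9 genes in the Gm4724 group were 94.3% to 100% identical. The letters CCAAT, on either strand, stood in all 3 Xlr3 windows and in all 9 of the Gm4724 group, in 0 of the 3 Tmem254 windows, and in 37.9% of the windows of all 27025 genes. A TATA box motif and a longer motif were also searched for. They stood in 0 of the windows of these 3 groups, against 14.2% and 3.49% of the windows of all genes. Windows within a group are largely alike, so their genes are not independent cases to set beside the share of all genes. These counts describe the windows, not any factor's binding.

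The shared probe sets named 2016 symbols, of which 627 also had a probe set of their own. A probe set named 2 symbols in 717 cases (44.5%) and 10 or more in 157 (9.73%), with at most 20. By the RefSeq gene table, all genes of a probe set lay on 1 chromosome as a run of near neighbours, with no 2 successive genes over 10 places apart in gene order, in 581 cases (36.0%). In 471 (29.2%) they lay on 1 chromosome but farther apart, and in 533 (33.0%) on different chromosomes. In a further 28 at least 1 gene was not found in that table, so the set was not placed.

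Many shared probe sets repeat one another. Of the 1613, 260 (16.1%) had the same deposited intensity on all 4 arrays as at least 1 other probe set, against 0.592% of the probe sets that name 1 symbol. All 226 groups of equal values on the array held a single annotation each. Equal probe sets were therefore also counted once, which left 1446 different readings of shared genes. The largest repeat was Snord116l2, Snord116l1 and Gm26504, in a cluster of small nucleolar RNAs, with 18 probe sets of equal values.

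Differences below are log2 values, Flt3 KO minus WT, from limma fitted to all 30177 probe sets with p-values adjusted by the Benjamini-Hochberg method over all of them, and the threshold is an adjusted p under 0.05. Flt3 itself, read by its own probe set, fell from log2 intensities of 10.71 and 10.77 in WT to 8.46 and 8.61 in Flt3 KO. Of the 1613 shared probe sets 27 passed (1.67%), 5 higher and 22 lower in Flt3 KO; over all probe sets 0.964% passed, 0.464% higher and 0.5% lower. Counted as readings, 17 of 1446 passed (1.18%), 5 higher and 12 lower, beside 0.946% of all 29699 different readings (0.471% higher and 0.475% lower). The share called lower was 1.36% of shared probe sets and 0.83% of readings, and the share called higher 0.31% and 0.346%; 11 of the 27 were probe sets of the Gm4724 group, which gave 2 readings. The values of the genotypes did not overlap in 40.3% of the shared probe sets and in 45.0% of all. At an unadjusted p under 0.05 there were 169 shared probe sets (10.5%), against 14.6% of all. The median absolute difference was 0.069 over the shared probe sets and 0.094 over all.

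The calls depended on all 4 arrays. Leaving out any one of them (WT replicate 1 or 2, Flt3 KO replicate 1 or 2) left 0 of the 17 readings past the threshold in limma, while all 17 kept their direction. Their direction could not turn in these fits, since in each of the 17 both Flt3 KO values lay on one side of both WT values. For 1 probe set taken alone, the lowest p that an exact two-sided permutation of these 4 arrays allows is 0.333.

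**Figure D1:**
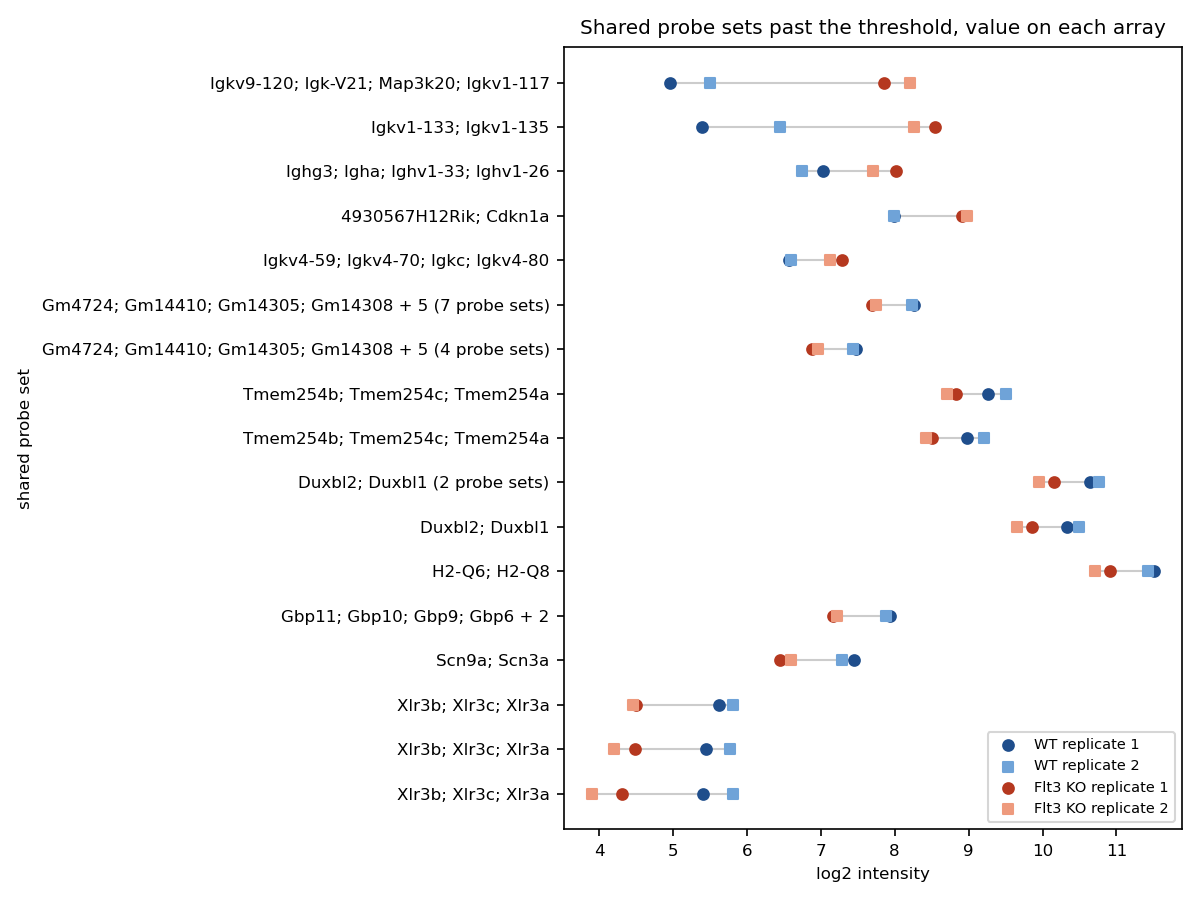
Log2 intensity of each shared probe set past the threshold (one row per reading) on each of the 4 arrays, WT in blue and Flt3 KO in red. In all 17 rows both Flt3 KO points lie on one side of both WT points; 5 rows are higher and 12 lower in Flt3 KO.

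**Figure D2:**
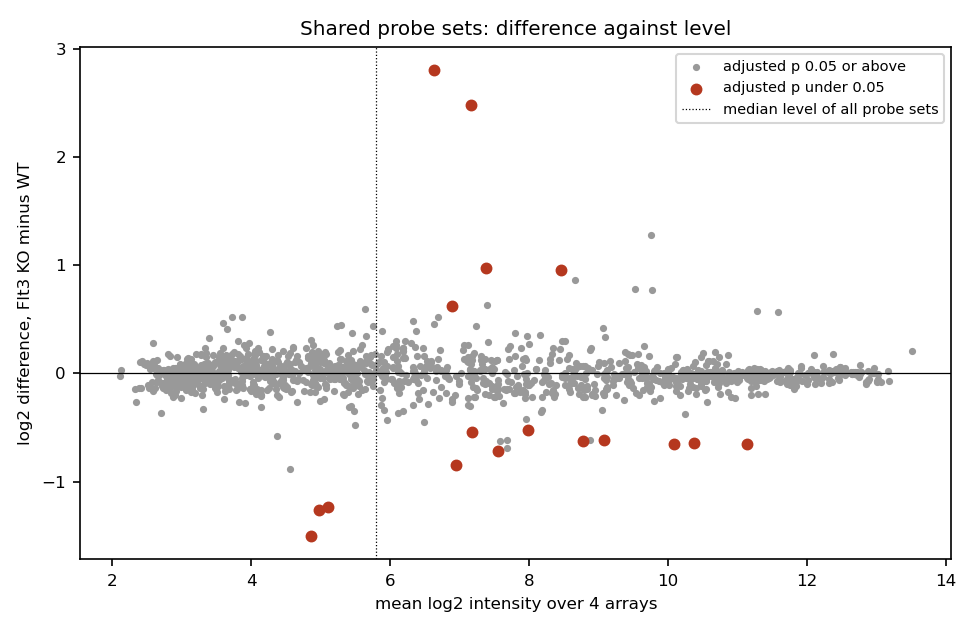
Difference between the genotypes (vertical axis, log2) against the mean log2 intensity over 4 arrays (horizontal axis) for the 1446 readings of shared genes. Red points passed the threshold; the dotted line marks the median level of all probe sets, 5.80, and the 3 Xlr3 points at the lower left lie below it.

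Among shared probe sets of antigen receptors, only those of immunoglobulin segments held rises past the threshold. These segments encode the antibody chains of B cells and plasma cells. Of 16 probe sets, 4 were higher past the threshold and 0 lower, 14 differences were positive, and the median difference was 0.54, against −0.00059 over all probe sets. The probe set of Igkv9-120, Igk-V21, Map3k20 and Igkv1-117 read 4.96 and 5.50 in WT, against 7.86 and 8.20 in Flt3 KO. It rose by 2.80 (SE 0.19, adjusted p = 0.0110), from WT values that lay below the median level of all probe sets, 5.80. Most of its names are kappa light chain segments, and Map3k20 is a stress-activated kinase. The probe set of Igkv1-133 and Igkv1-135 read 5.39 and 6.45 in WT, against 8.54 and 8.26 in Flt3 KO, a rise of 2.48 (SE 0.32, adjusted p = 0.0322). The WT arrays stood well apart from each other, but neither reached the Flt3 KO arrays. This rise did not pass in limma with robust variances (adjusted p = 0.124), with the replicate block (0.0575) or without the intensity trend (0.0907).

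The heavy chain probe set of Ighg3, Igha, Ighv1-33 and Ighv1-26 read 7.03 and 6.75 in WT, against 8.02 and 7.71 in Flt3 KO, and rose by 0.97 (SE 0.14, adjusted p = 0.0413). The fourth, of Igkv4-59, Igkv4-70, Igkc and Igkv4-80, read 6.57 and 6.60 in WT, against 7.29 and 7.13 in Flt3 KO, and rose by 0.62 (SE 0.088, adjusted p = 0.0413). Igkc is the constant region of the kappa chain. The brightest immunoglobulin probe set, of Igkv6-14 and Igkv6-15, read 10.03 and 10.42 in WT, against 9.73 and 10.69 in Flt3 KO, so its groups overlapped (difference −0.015, adjusted p = 0.992). Replicates were farther apart here than elsewhere: over the 16 probe sets the median gap was 0.28 in WT and 0.21 in Flt3 KO, against 0.095 and 0.096 over all probe sets.

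Plasma cell and B cell markers were measured on the same arrays with probe sets of their own. Of 6 plasma cell markers 1 was higher past the threshold, Jchain, the joining chain of secreted antibody, at 8.50 and 8.89 in WT, against 10.04 and 9.75 in Flt3 KO. The list's median difference was −0.18, and its summed intensity was 3831 and 3855 in WT, against 4030 and 3679 in Flt3 KO. Xbp1, the brightest of the list, weighs most in that sum. It read 11.46 and 11.43 in WT, against 11.23 and 11.16 in Flt3 KO, and did not pass. Of 5 B cell markers 0 passed in limma, with sums of 651 and 683 in WT, against 642 and 602 in Flt3 KO. Among the defining markers, Cd79a read 7.05 to 7.29, Ms4a1 5.28 to 5.59, Sdc1 7.19 to 7.59 and Tnfrsf17 4.89 to 5.27 over the 4 arrays. The pDC list stayed bright, with sums of 36424 and 36010 in WT, against 31751 and 31976 in Flt3 KO, 2 of 9 markers lower and a median difference of −0.24. The part of other cells in the immunoglobulin difference was not tested. In such sorted samples a change in the number of cells of a type and one in RNA per cell cannot be told apart.

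Of the 8 probe sets of H2 genes, the mouse major histocompatibility complex, 1 fell and 7 differences were negative, with a median of −0.17. H2-Q6 and H2-Q8 are nonclassical class I genes of the Qa region on chromosome 17. Their probe set read 11.51 and 11.43 in WT, against 10.92 and 10.71 in Flt3 KO, and fell by 0.65 (SE 0.077, adjusted p = 0.0271), which is 1.57-fold lower. The next, of H2-T9, H2-T22 and H2-T10, read 10.50 and 10.38 in WT, against 10.14 and 9.99 in Flt3 KO (difference −0.37, adjusted p = 0.0910). For H2-T10 alone, a separate probe set was past the threshold, at −0.49 (adjusted p = 0.0382).

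The classical class I genes H2-K1 and H2-D1, which present peptides to CD8 T cells, shared a pair of probe sets with LOC547349. The brighter read 11.87 and 11.92 in WT, against 11.78 and 11.72 in Flt3 KO, a difference of −0.15 (adjusted p = 0.226). The probe set of the class II accessory genes H2-DMb2 and H2-DMb1 differed by −0.19 (adjusted p = 0.283) and that of H2-T-ps and H2-T23 by −0.20 (adjusted p = 0.212). H2-T3 with H2-T18 (0.031) and H2-Q1 with H2-Bl (−0.026) were close to 0, and their signs turned under other settings.

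Of the 20 readings placed in interferon system families, by at least 2 matching symbols, 1 passed, beside 0.946% of all different readings. Some interferon genes were classed elsewhere, among them Ifnl3 with Ifnl2, described below, and Ifnz, listed with predicted genes. Guanylate-binding proteins are large GTPases that interferon induces and that attack the vacuoles of intracellular pathogens. The probe set of Gbp11, Gbp10, Gbp9, Gbp6 and 2 more, Gbp8 and Gbp4, all neighbours on chromosome 5, read 7.93 and 7.89 in WT, against 7.17 and 7.22 in Flt3 KO. It fell by 0.71 (SE 0.072, adjusted p = 0.0222), which is 1.64-fold lower. Flt3 lies on the same chromosome in the RefSeq table. The other GTPases were not past the threshold: Tgtp2 with Tgtp1 differed by 0.25 and 0.13 in a pair of probe sets, Irgm2 with Igtp by −0.14, and Gbp2 with Gbp2b by 0.44 with 1 Flt3 KO array at 5.70 and the other at 5.21.

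The 3 shared probe sets of Ifna genes, type I interferons, were dim and did not pass in these unstimulated cells. The probe set of Ifna14, Ifna12, Ifna15, Ifna16 and 9 more read 5.68 and 5.71 in WT, against 5.62 and 5.80 in Flt3 KO (difference 0.016, with the sign turned under other scalings). A second long set, which names Ifna4 in place of Ifna2 and Ifna11, read 4.94 to 5.10 over the 4 arrays. That of Ifna15, Ifnab, Ifna7, Ifna6 and 2 more read 5.57 and 5.79 in WT, against 5.49 and 5.54 in Flt3 KO (difference −0.16, adjusted p = 0.560). Averaged over the 4 arrays, all 3 lay below the median level of all probe sets, 5.80. Ifna5 read alone lay above it, at 6.71 to 6.77 over the 4 arrays (difference 0.037, adjusted p = 0.880). The p200 pair Ifi211 and Ifi204, relatives of cytosolic DNA sensors, differed by −0.049 (adjusted p = 0.862).

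Xlr3 genes are X-linked members of a family first found in lymphocytes, related to a protein of meiotic chromosomes. Each of the 3 probe sets of Xlr3b, Xlr3c and Xlr3a fell. One read 5.63 and 5.81 in WT, against 4.51 and 4.46 in Flt3 KO, a difference of −1.24 (SE 0.10, adjusted p = 0.0133). The others differed by −1.26 (SE 0.15, adjusted p = 0.0273) and −1.50 (SE 0.18, adjusted p = 0.0297). They read 5.41 to 5.81 in WT and 3.91 to 4.48 in Flt3 KO. These levels are close to or below the median level of all probe sets, and no fold is given.

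The neighbouring Xlr4a, Xlr4c and Xlr4b were brighter. Their 3 probe sets read 7.75 to 8.18 in WT and 7.21 to 7.43 in Flt3 KO, with differences of −0.69, −0.62 and −0.63, and none passed (adjusted p = 0.0561 to 0.0698). The 3 probe sets of a group share target sequence and are not independent. In the remaining readings of X-linked germ cell families no difference passed. The sex markers did not differ in kind between genotypes: Xist, which silences an X chromosome in females, was dim in both genotypes (4.52 and 4.59 in WT), and the Y-linked Kdm5d 7.62 to 7.76.

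Probe sets of duplicated loci on chromosome 14 fell in a pair of families. Duxbl2 and Duxbl1, double homeobox transcription factors, had 3 probe sets, of which a pair had equal values: 10.64 and 10.77 in WT, against 10.16 and 9.95 in Flt3 KO. This pair fell by 0.65 (SE 0.084, adjusted p = 0.0322), and the third also by 0.65 (SE 0.088, adjusted p = 0.0359). Tmem254b, Tmem254c and Tmem254a encode small membrane proteins. One of their 3 probe sets read 8.98 and 9.21 in WT, against 8.51 and 8.42 in Flt3 KO and fell by 0.63 (SE 0.091, adjusted p = 0.0426). Another fell by 0.62 (SE 0.093, adjusted p = 0.0491), and the third, at −0.62, was just outside the threshold (adjusted p = 0.0571). Replicates of a genotype did not overlap those of the other in any of them, as was so in 40.3% of the shared probe sets and 45.0% of all. None of these genes had a probe set of its own. The probe sets of Plac9b, Gm9780 and Plac9a, also duplicated neighbours on chromosome 14, did not pass: a pair of equal values differed by 0.28 and the third by 0.20 (adjusted p = 0.556 and 0.666), with Flt3 KO replicate 1 highest and the genotypes overlapping.

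The Gm4724 group holds 9 predicted genes of chromosome 2: Gm4724, Gm14410, Gm14305, Gm14308 and 5 more. Its 11 probe sets gave 2 readings. The first, from 7 of them, was 8.26 and 8.23 in WT, against 7.69 and 7.75 in Flt3 KO, a fall of 0.53 (SE 0.068, adjusted p = 0.0322). The second, from 4, was 7.48 and 7.44 in WT, against 6.88 and 6.96 in Flt3 KO, a fall of 0.54 (SE 0.076, adjusted p = 0.0413). A longer set that adds further predicted genes and zinc finger genes of this region to the group read 9.19 and 9.26 in WT, against 8.82 and 8.96 in Flt3 KO and did not pass (difference −0.34, adjusted p = 0.107).

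Scn9a and Scn3a encode pore-forming subunits of voltage-gated sodium channels, best known from neurons. Their shared probe set read 7.45 and 7.29 in WT, against 6.45 and 6.60 in Flt3 KO, and fell by 0.85 (SE 0.097, adjusted p = 0.0264), which is 1.80-fold lower. That of Scn3a and Scn1a read 5.69 and 5.77 in WT, against 5.24 and 5.26 in Flt3 KO, with a difference of −0.48 (adjusted p = 0.0855).

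The remaining rise was in the probe set of Cdkn1a and 4930567H12Rik, genes that lie on different chromosomes. Cdkn1a encodes p21, an inhibitor of cyclin-dependent kinases that halts the cell cycle. It read 7.99 in both WT arrays and 8.90 and 8.98 in Flt3 KO, a rise of 0.95 (SE 0.065, adjusted p = 0.0110), or 1.94-fold. Neither replicate pair spread by more than a small part of that difference. Cdkn1a had no probe set of its own, so its value cannot be set beside one.

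**Figure D3:**
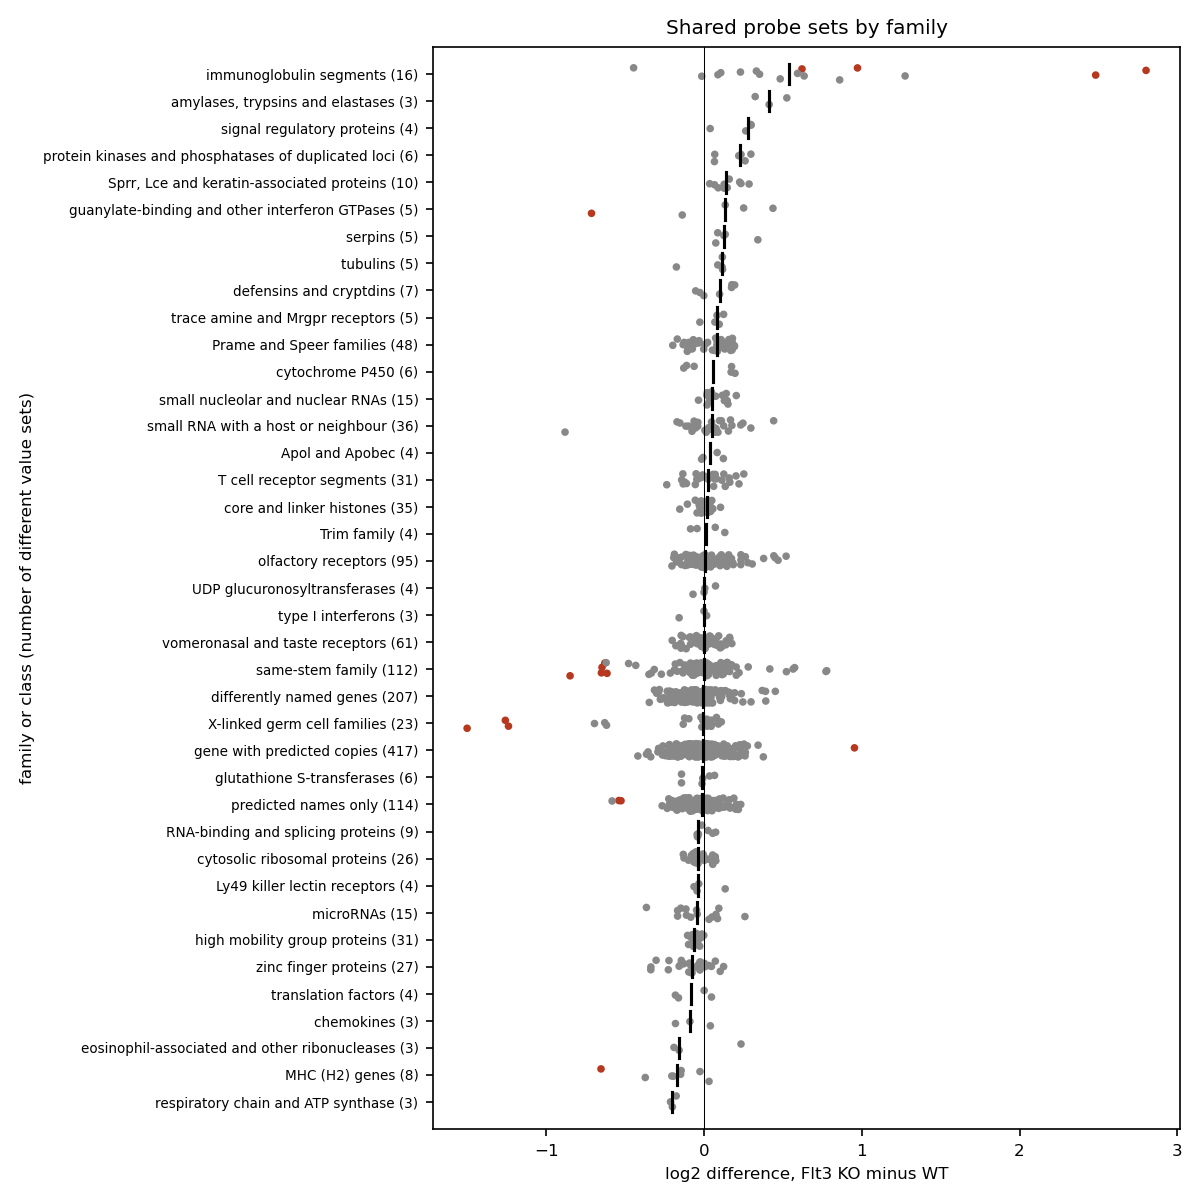
Difference between the genotypes (horizontal axis, log2) for each reading of shared genes, by family or class with at least 3 readings (number in brackets); black bars are medians and red points passed the threshold. Immunoglobulin segments have the highest median, 0.54. The 3 Xlr3 readings lie lowest in the X-linked germ cell families, and those of Xlr4, not past the threshold, follow at −0.69 to −0.62.

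For 853 of the 1446 readings at least 1 symbol was also read alone, by different oligonucleotides on the same arrays. The single-symbol difference was the median over these symbols, each taken from the brightest probe set of its own. Across them the shared difference and the single-symbol difference had a Pearson r of 0.303 and a Spearman rho of 0.260, a description only, since both come from the same RNA and many readings were dim. Of the called readings 6 had such a partner, and in 3 a partner was past the threshold as well. Among the readings not called, 4 had a partner past it. Over all probe sets that name 1 symbol 1.06% passed.

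Gbp4 alone read 9.05 and 8.92 in WT, against 8.22 and 7.95 in Flt3 KO and fell by 0.89 (SE 0.10, adjusted p = 0.0264). Gbp9 (−0.48) and Gbp8 (−0.46) did not pass (adjusted p = 0.0767 and 0.0754), nor did the dim Gbp11 (−0.27). Gbp6 and Gbp10 had no probe set of their own. Scn3a alone fell by 0.70 (SE 0.097, adjusted p = 0.0394), from WT values of 6.43 and 6.28. Scn9a alone lay below the median level in a pair of probe sets, at up to 4.69, with differences of 0.038 and 0.16.

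Igkv9-120 alone rose by 1.81 (SE 0.27, adjusted p = 0.0457), from 4.85 and 4.22 to 6.02 and 6.67. The kinase Map3k20, listed with it, read 4.79 to 5.03 alone over the 4 arrays (difference 0.18, adjusted p = 0.435). Ighg3 alone differed by 0.44 and Igha by 0.056 and −0.097, none past the threshold. Gm14410, the member of the Gm4724 group that was also read alone, did not pass (difference 0.19, adjusted p = 0.482) at a level of 4.27 to 4.59. Differences between a shared and a single-symbol probe set were not themselves tested.

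**Figure D4:**
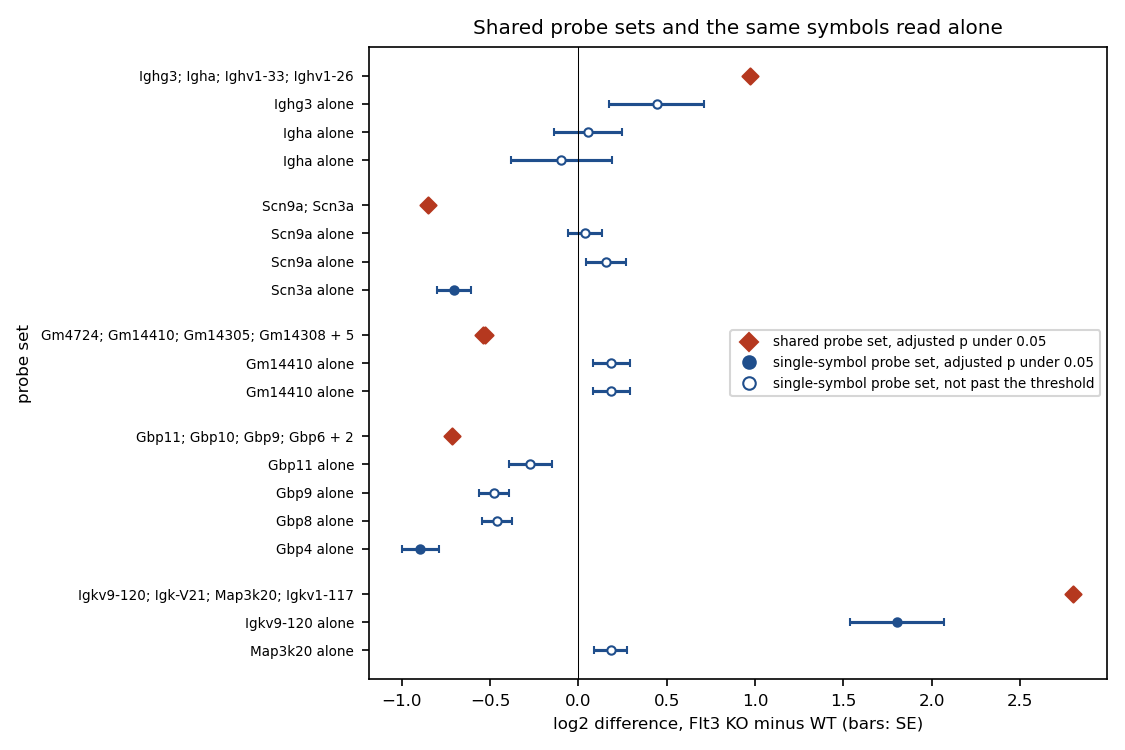
Difference between the genotypes (horizontal axis, log2) of called shared probe sets (red diamonds) and of probe sets for 1 of the same symbols (blue circles with SE bars; filled where past the threshold). Gbp4, Scn3a and Igkv9-120 are filled. The unfilled circles run from −0.48 (Gbp9) to 0.44 (Ighg3).

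The other families held no shared probe set past the threshold. A family here counts only probe sets in which at least 2 symbols matched its pattern. Sets with 1 ribosomal protein or histone gene beside other names, such as Gm32899 with Rpl12 or Gm12657 with H3f3a, were classed elsewhere. Readings in the ribosomal protein family so defined numbered 26, with a median of −0.039. This median was −0.021 after quantile normalization and −0.077 after centring each array, and ran from −0.050 to −0.022 with 1 array left out. The brightest of the family, of Rpl31-ps12, Rpl31 and Clpb, read 13.14 to 13.22 on the 4 arrays. The 31 readings of high mobility group proteins, which bend DNA in chromatin, all had negative differences, from −0.10 to −0.0016, with a median of −0.064 that was −0.030 after quantile normalization and −0.10 after centring each array, and ran from −0.11 to −0.011 with 1 array left out. Probe sets of a family share target sequence, so these readings are not independent. Core and linker histones had 35 readings with a median of 0.017, whose sign turned after centring. Ndufb4b with Ndufb4 and Ndufs5 with Ndufs5-ps, of respiratory complex I, had 3 readings between −0.21 and −0.18.

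Several families of other tissues were dim. Of 95 readings of olfactory receptors 94 lay below the median level of all probe sets, as did all 61 of vomeronasal and taste receptors and all 7 of defensins. Of 31 readings of T cell receptor segments 20 lay below it. Of 10 readings of Sprr, Lce and keratin-associated proteins 0 lay below it, all 10 differences were positive and none passed. The 4 probe sets of Ly49 receptors, which natural killer cells use to sense class I molecules, read 3.02 to 3.66. The paired immunoglobulin-like receptors Pirb, Pira2 and Pira1, with Lilra6, Gm15448 and Gm10693, were bright at 9.26 to 9.35 in WT and 9.39 to 9.63 in Flt3 KO, and their differences of 0.20 and 0.18 did not pass. Sirpb1c, Sirpb1b and Sirpb1a, activating receptors of myeloid cells, had 4 positive differences with a median of 0.28 and an adjusted p of at least 0.209. On the same arrays 1 of 10 macrophage and monocyte markers was higher past the threshold, with sums of 4124 and 3760 in WT, against 4393 and 5769 in Flt3 KO, and the part of such cells was not tested.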

How the data were processed

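Per the labels, total RNA of sorted splenic pDCs was amplified, labelled with biotin and hybridised to whole-transcript arrays. The authors deposited 1 processed intensity per probe set and array, on a linear scale; how they corrected the background, summarised and scaled it is not given in the sources used here. Array medians were 55.1 and 55.3 in WT, against 57.2 and 56.2 in Flt3 KO. No detection call came with the values, and the number of arrays limits the precision.

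Intensities were turned into log2 with no added constant or filter and tested with limma version 3.58.1 under R version 4.3.3 (lmFit, eBayes with an intensity trend, no covariate) over all 30177 probe sets. The script was tested on simulated data. Symbols came from the platform annotation, and 1999 of 2016 were found in the RefSeq gene table. Families were assigned by patterns matching at least 2 symbols of a probe set. Every called shared probe set was named, then per family the lowest p and the brightest, and all of the H2, interferon, p200, guanylate-binding, Ly49 and paired receptor families. Promoter windows were compared with Biopython 1.88. Alternatives were another scaling, an added constant, other variance models, filters, the replicate block and each array left out. The members and lists were chosen with earlier results of these data known.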

Additional observations from a re-analysis of the deposited data

How the results depend on the processing

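The number of arrays limits every call. Over all 30177 probe sets 291 passed in the fit reported (140 higher, 151 lower), 450 with each array centred on its median (157 higher, 293 lower; 34.9% higher against 48.1%), 334 with quantile normalization (190 higher, 144 lower; 56.9% higher), 492 with dim probe sets left out, 496 without probe sets that have no symbol, and 25 without the intensity trend. The balance of higher and lower calls thus depends on the scaling. Of the shared probe sets 27 passed in the fit reported and 3 without the trend. With probe sets of equal values fitted once, an alternative chosen after seeing the data, 16 of 1446 readings passed, against 17 in the fit reported. Of the 17 called readings, 16 were kept with quantile normalization, 17 with centring, 17 with 16 added to each intensity, 16 with robust variances, 14 of the 14 fitted without dim probe sets and 3 without the trend (4930567H12Rik with Cdkn1a, Igkv9-120 with Igk-V21, Map3k20 and Igkv1-117, and 1 Xlr3 reading). None of the 17 reversed in any of these settings. The reading lost with robust variances was that of Igkv1-133 with Igkv1-135. Leaving out 1 array gave 0 to 2 calls over all probe sets and 0 among the shared ones in limma, with 105 to 158 shared probe sets at an unadjusted p under 0.05; these fits have fewer samples.

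The replicate numbers are shared by the genotypes, and the labels do not say whether same-numbered arrays were handled together. Over all probe sets their deviations were nearly uncorrelated (correlation 0.0087). This average cannot exclude a pairing that acts on some genes. With the replicate block 101 of all probe sets passed (67 higher, 34 lower; 66.3% higher) and 5 of the shared ones (3 higher, 2 lower, against 5 and 22 in the fit reported). Of the 17 called readings 5 were kept and 12 lost.

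No called difference turned its sign. With 1 array left out it could not, since the genotypes did not overlap in any called reading. The signs that turned were of uncalled differences, of which that of Amy2a2 with Amy2b and Amy2a5 was 0.52 in the fit reported and rested on Flt3 KO replicate 2 (3.18 and 4.79 in the Flt3 KO arrays). For H2-T3 with H2-T18 the difference became −0.014 under quantile normalization and −0.0067 with centring. For the set of Ifna14, Ifna12, Ifna15, Ifna16 and 9 more it became −0.023 and −0.022, and with 1 array left out it ran from −0.075 to 0.11. With 1 array left out the second long interferon set ran from −0.081 to 0.080, H2-Q1 with H2-Bl from −0.14 to 0.091, Amy2a2 with Amy2b and Amy2a5 from −0.28 to 1.33, Mrgprx3-ps with Mrgpra9 from −0.054 to 0.30, Ugt3a2 with Ugt3a1 from −0.0023 to 0.15, and Klra14-ps with Klra9, Klra8, Klra3 and Klra10 from −0.099 to 0.010. The causes were not tested.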

Other observations

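Several shared probe sets lay just outside the threshold. Ifnl3 and Ifnl2, type III interferons that pDCs can secrete, read 6.48 and 6.39 in WT, against 6.94 and 6.98 in Flt3 KO. The difference was 0.52 (adjusted p = 0.0525). Their start windows were 99.0% identical over 300 bases. The shared sets of Ifna genes lay, on average over the arrays, below the median level. Pnp2 and Pnp, purine nucleoside phosphorylases, read 8.80 and 8.93 in WT, against 9.29 and 9.28 in Flt3 KO, a difference of 0.42 (adjusted p = 0.0598). The dim set of Snord68 and Rpl13 read 5.0 in both WT arrays and 3.89 and 4.34 in Flt3 KO, a difference of −0.88 (adjusted p = 0.0690).

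Probe sets with the same symbols did not always give the same difference. The second probe set of Igkv9-120, Igk-V21, Map3k20 and Igkv1-117 read 7.16 and 9.32 in WT, against 9.06 and 9.13 in Flt3 KO, so WT replicate 2 lay above both Flt3 KO arrays (difference 0.86, adjusted p = 0.577), whereas the first rose by 2.80. For Iglv1, Iglc1 and Iglv2, of the lambda light chain, one probe set read 9.19 and 9.05 in WT, against 10.88 and 9.91 in Flt3 KO (difference 1.27, adjusted p = 0.121). The other read 6.86 and 6.58 in WT, against 6.28 and 6.26 in Flt3 KO (difference −0.45, adjusted p = 0.153). Neither passed, and their signs were opposite.

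Adult globin genes, which encode the haemoglobin of red cells, were read here by shared probe sets alone and were bright; they were picked after their values were seen. A probe set of Hba-a2 and Hba-a1 read 9.53 and 8.73 in WT, against 9.68 and 10.15 in Flt3 KO (difference 0.78, adjusted p = 0.264). A probe set of Hbb-bt, Hbb-bs, Hbb-b2 and Hbb-b1 read 11.46 and 10.54 in WT, against 11.35 and 11.80 in Flt3 KO (difference 0.57, adjusted p = 0.430), so the genotypes overlapped. WT replicate 2 was lowest in both. The 3 erythroid markers read alone had summed intensities of 212 and 176 in WT, against 175 and 186 in Flt3 KO, with 0 past the threshold in limma and a median difference of 0.0077.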
